A study of Mus musculus with 24 samples.

Results

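The 10 genes described here are Xbp1 and 9 endoplasmic reticulum (ER) chaperones and quality control factors that it is known to regulate together with other factors: Hspa5, Hsp90b1, Hyou1, Pdia4, Dnajb9, Dnajc3, Sdf2l1, Creld2 and Herpud1. They were chosen by gene symbol among the 23746 gene loci of each mouse liver library, and all 10 were found, each at 1 locus. All mice were of the C57BL/6 strain. In the acute model, floxed mice (FoxO1lox/lox) received a tail-vein injection of an adeno-associated virus, either AAV8.TBG.eGFP as control (GFP) or AAV8.TBG.Cre to delete FoxO1 (Cre), with the hepatocyte promoter TBG driving both. Livers of this model were collected on day 21 after injection. In the constitutive model, FoxO1lox/lox mice without Cre (WT) were compared with FoxO1-/- mice (KO), in which the floxed allele was crossed to an Albumin-cre transgene. The livers of each genotype were taken after a 4 h fast, or after a 4 h fast and 1 h of refeeding, which gives 8 groups of 3 libraries. All 8 groups carry the floxed allele, and no virus is named for the constitutive model. Age and sex of the mice are not stated in the labels. Nor do the labels state that each library of a group is a separate animal, so the p-values cover the spread among these 24 libraries, part of which may be technical.

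The ER folds secreted and membrane proteins, and its chaperones are made in proportion to the load of unfolded protein through the unfolded protein response. In that response the sensor IRE1 (gene Ern1) splices the messenger RNA of Xbp1 without the spliceosome, and the protein made from the spliced form, with the sensor protein ATF6, switches on genes for chaperones, co-chaperones and degradation factors. Hepatocytes secrete most plasma proteins, and feeding is known to engage this response in the liver for a short time. FoxO1 is the forkhead factor that insulin inactivates after a meal. The values used here are totals per gene in FPKM (fragments per kilobase of transcript, scaled to the number of mapped fragments), so spliced and unspliced Xbp1 cannot be told apart.

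Foxo1 itself checked the labels: its group means were 4.47 to 6.16 FPKM in the 4 control groups and 0.323 to 0.433 FPKM in the 4 knockout groups. Hepatocyte markers summed to 48800 to 70500 FPKM per library. Markers of pancreatic acinar cells, a cell type with a very large ER, summed to 0.143 to 1.46 FPKM, and 12 of their 13 loci were under 1 FPKM in every library. Markers of plasma and B cells summed to 0.952 to 5.06 FPKM. Relative depth, read from the steps between low values, was 1.16 to 1.37 times the mean in 4 acute libraries, 1 per group (Cre fasted 1, Cre refed 1, GFP fasted 3 and GFP refed 3). It was 0.55 to 0.67 times the mean in the other 8 acute libraries and 1.10 to 1.27 times in the constitutive ones. Total depth is unknown.

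Promoter sequences are shown for the genes whose 300-base window, from 250 bases before to 50 after the start site that RefSeq annotates on GRCm38.p6 (the assembly also called mm10), holds an ER stress response element. The classical element, ERSE, was searched as CCAAT, 9 bases of any kind and CCACG, and the other form, ERSE-II, as ATTGG, any 1 base and CCACG, both on either strand. Promoters were found for 9 of the 10 genes, and Hyou1 is named only. Capitals mark the matches, and each sequence ends at the base before the start site.

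Hspa5 (chr2:34771970-34772089, plus strand, ERSE): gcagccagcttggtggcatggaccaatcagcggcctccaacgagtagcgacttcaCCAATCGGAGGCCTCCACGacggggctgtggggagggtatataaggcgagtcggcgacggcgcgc
Hsp90b1 (chr10:86705445-86705694, minus strand, ERSE at 2 places): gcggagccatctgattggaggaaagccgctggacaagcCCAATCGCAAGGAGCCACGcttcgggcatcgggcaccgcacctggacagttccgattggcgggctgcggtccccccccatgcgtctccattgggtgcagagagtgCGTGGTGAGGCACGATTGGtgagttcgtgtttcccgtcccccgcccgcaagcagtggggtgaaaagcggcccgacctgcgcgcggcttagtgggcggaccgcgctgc
Creld2 (chr15:88819496-88819645, plus strand, ERSE): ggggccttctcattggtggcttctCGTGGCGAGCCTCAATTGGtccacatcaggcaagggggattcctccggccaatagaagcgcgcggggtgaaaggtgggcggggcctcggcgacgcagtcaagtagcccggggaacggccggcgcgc
Dnajc3 (chr14:118937802-118937931, plus strand, ERSE): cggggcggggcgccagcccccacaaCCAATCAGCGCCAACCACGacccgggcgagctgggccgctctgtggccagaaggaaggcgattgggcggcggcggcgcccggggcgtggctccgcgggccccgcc
Herpud1 (chr8:94386329-94386428, plus strand, ERSE-II): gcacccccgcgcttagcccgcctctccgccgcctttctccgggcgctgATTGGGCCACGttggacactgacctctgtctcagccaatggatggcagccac

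The ERSE letters stood in 4 of the 9 promoters and in 39 of the 32851 promoters of the reference table (0.119%). In Hspa5 they ran from 65 to 47 bases before the start site, and in Dnajc3 from 105 to 87. Hsp90b1 held a match on its own strand, 212 to 194 bases before the start, and another on the opposite strand, 107 to 89 bases before it. The match in Creld2 lay on the opposite strand, 126 to 108 bases before the start. ERSE-II stood in Herpud1 alone among the 9, 52 to 42 bases before its start, and in 12 of all promoters (0.0365%). The UPRE letters TGACGTGG, a further unfolded protein response motif (222 promoters, 0.676%), and the forkhead letters GTAAACA (1199 promoters, 3.65%) were in 0 of the 9 windows. The windows of Xbp1, Dnajb9, Pdia4 and Sdf2l1 held none of the 4 motifs as searched. For Xbp1 the deposited locus begins 326 bases downstream of the annotated start site, and for Herpud1 71 bases downstream.

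All 10 genes were well expressed. Their median level over the 24 libraries ran from 19.0 FPKM (Sdf2l1) to 279 FPKM (Hsp90b1), above 89.4% and 98.8% of all loci. Hspa5 had a median of 231 FPKM, Herpud1 of 208 FPKM and Xbp1 of 120 FPKM, followed by Pdia4 (59.0), Dnajc3 (39.8), Hyou1 (24.9), Creld2 (23.1) and Dnajb9 (21.7 FPKM). Creld2 varied most among the 10, from 12.4 FPKM in GFP fasted 3 to 88.5 FPKM in Cre refed 1, a 7.12-fold range. Hyou1 ranged 4.26-fold, Hspa5 3.82-fold, Sdf2l1 3.61-fold and Dnajb9 3.52-fold, and the other 5 between 2.08- and 2.49-fold. The authors' files give a confidence interval with each FPKM value, and its arms were 1.32% to 18.7% of the value. In 76 of the 80 combinations of gene and group, the intervals of the highest and the lowest library of the group did not touch. Such an interval covers the estimate within 1 library and not the difference between livers.

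Some libraries stood apart from their group across most of the genes. Cre refed 1 was the highest of its group in 9 of the 10 genes, with a median of 1.31 times the group mean, and Cre refed 3 was the lowest in 8. WT fasted 2 was the highest in 8 (1.28 times the mean) and WT fasted 1 the lowest in 9 (0.753 times). WT refed 2 was the lowest in 9 genes, GFP fasted 3 in 8 and GFP refed 3 in 7, while Cre fasted 2 and KO fasted 3 were the highest in 8 each. The 4 deeper acute libraries were divided in these genes: Cre refed 1 was high, GFP fasted 3 and GFP refed 3 were low, and Cre fasted 1 was near its group mean (a median of 0.978 times). Over all genes of the acute fit, their deviations from the group means correlated positively in every pair (r from 0.16 to 0.472). What they share was not tested.

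**Figure D1:**
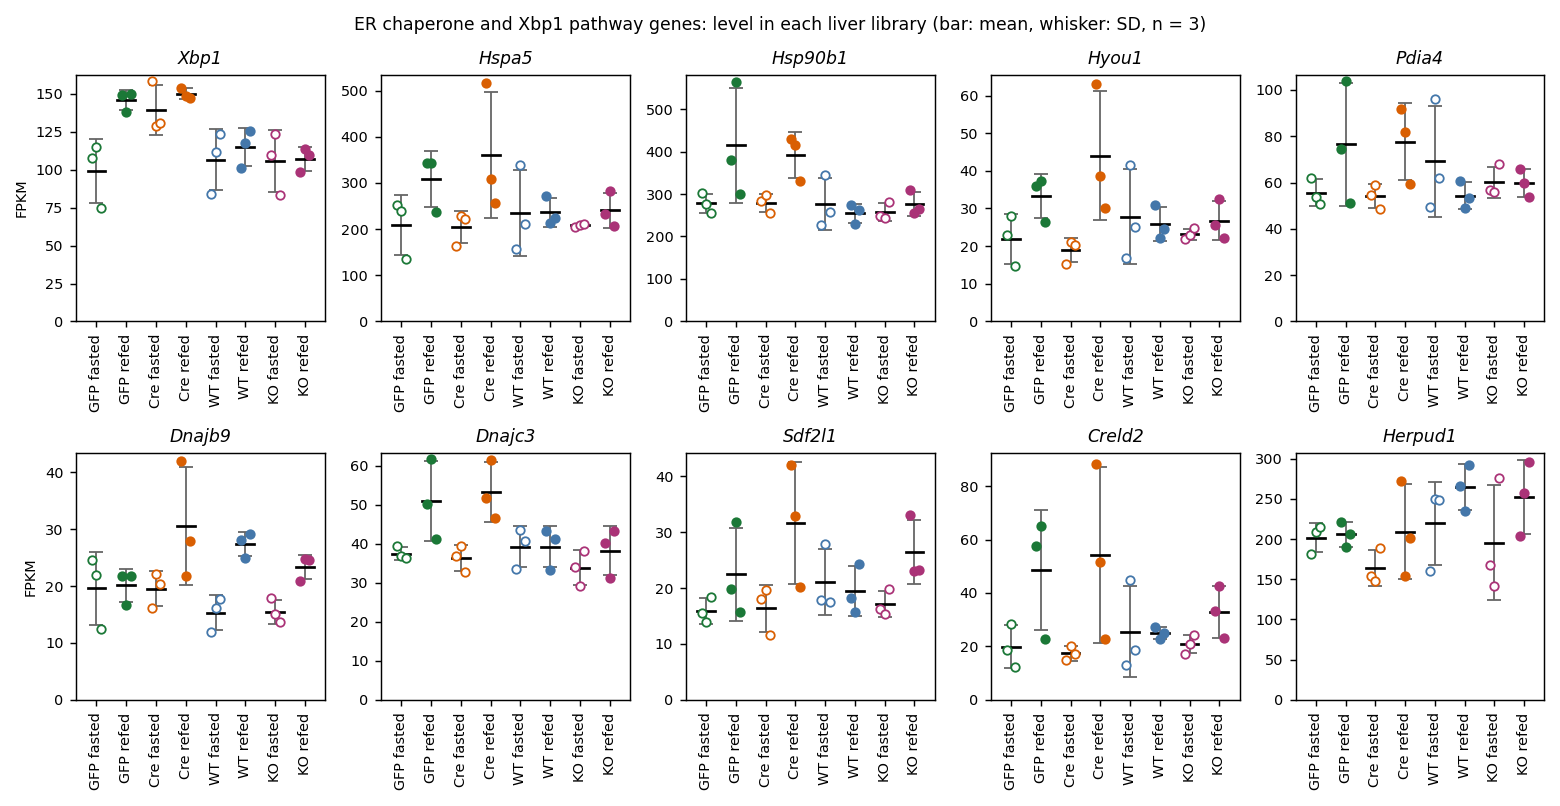
Level of each of the 10 genes in FPKM (vertical axis, from 0) in every library of the 8 groups. Open points are fasted and filled points refed libraries, bars are group means and whiskers the SD of 3 libraries; Creld2, Hyou1 and Hspa5 reach their highest point in the same Cre refed library.

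Xbp1, which encodes the transcription factor of the pathway (mm10 chromosome 11, 5520967 to 5525872), had its lowest group mean in fasted acute controls. It stood at 108, 115 and 74.8 FPKM in the 3 GFP fasted libraries and at 149, 138 and 150 FPKM in the GFP refed libraries. All refed values lay above all fasted values, and the refed libraries were close together. The means were 99.1 ± 21.3 and 146 ± 6.48 FPKM (SD, n = 3 each), a 1.47-fold rise. On the log2(FPKM + 1) scale the change was 0.58 ± 0.14 (SE; adjusted p = 0.0355, limma). It was the 1 gene of the 10 called higher here, where 4.81% of all 10452 genes tested were. In the Cre livers Xbp1 was at 159, 129 and 131 FPKM fasted and at 154, 149 and 148 FPKM refed, and the ranges overlapped (0.11 ± 0.14, adjusted p = 0.666). Constitutive livers stayed between 83.4 and 126 FPKM in all 12 libraries, with refeeding differences of 0.12 ± 0.16 in WT and 0.04 ± 0.16 in KO livers (adjusted p = 0.760 and 0.899). The Xbp1 call in GFP livers was lost when any 1 of the 6 libraries except GFP fasted 2 was left out (adjusted p up to 0.0921). It was also lost without a filter (0.0669), with median-of-ratios scaling (0.0726), with the GFP groups fitted alone (0.107) and over the 8 shallower libraries (0.0793).

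Hspa5 encodes BiP, the HSP70 chaperone of the ER lumen (chromosome 2, 34772090 to 34776529). In Cre livers it was at 165, 229 and 221 FPKM fasted and at 516, 309 and 257 FPKM refed. The refed libraries lay above the fasted ones without overlap, and Cre refed 1 stood far above the other 2. In GFP livers it was at 252, 240 and 135 FPKM fasted and at 343, 343 and 238 FPKM refed, with the lowest refed library below 2 fasted ones. Neither acute difference passed alone (0.76 ± 0.29, adjusted p = 0.136 in Cre and 0.59 ± 0.29, adjusted p = 0.241 in GFP livers). WT livers had 157, 339 and 212 FPKM fasted and 272, 213 and 223 FPKM refed, and the widest spread was among the fasted libraries (0.07 ± 0.22, adjusted p = 0.919). KO fasted livers were the most even group, at 204, 210 and 211 FPKM, against 232, 282 and 207 FPKM refed (0.19 ± 0.22, adjusted p = 0.609).

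Hsp90b1, the HSP90 chaperone of the ER also known as GRP94 (chromosome 10, 86690841 to 86705444), had 302, 276 and 256 FPKM in GFP fasted and 380, 564 and 300.2 FPKM in GFP refed livers. In Cre livers it had 284, 297 and 254 FPKM fasted and 429, 415 and 331 FPKM refed, with no overlap. The log2 differences were 0.53 ± 0.19 and 0.49 ± 0.19 (adjusted p = 0.123 and 0.150). In constitutive livers all 12 values lay between 227 and 344 FPKM, and the differences were -0.10 ± 0.14 in WT and 0.10 ± 0.14 in KO livers (adjusted p = 0.774 and 0.685).

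Hyou1, the ER protein GRP170 that exchanges nucleotide on BiP (chromosome 9, 44379490 to 44392369), followed Hspa5 closely. Cre livers had 15.4, 21.1 and 20.4 FPKM fasted and 63.2, 38.7 and 30.3 FPKM refed, so every refed library was above every fasted one. The means were 19.0 ± 3.13 and 44.0 ± 17.1 FPKM (SD, n = 3 each), a 2.32-fold rise and a log2 change of 1.12 ± 0.27 (SE; adjusted p = 0.0411, limma). It was the 1 gene of the 10 called higher in this comparison, against 4.3% of all genes tested. In 7 of the 10 genes the Cre refed libraries lay above the Cre fasted ones without overlap, against 23.0% of all genes. In GFP livers Hyou1 had 23.0, 28.0 and 14.8 FPKM fasted and 36.0, 37.2 and 26.5 FPKM refed, with groups that overlapped (0.61 ± 0.27, adjusted p = 0.205). The differences were -0.02 ± 0.25 in WT and 0.19 ± 0.25 in KO livers (adjusted p = 0.977 and 0.676). The call in Cre livers was lost when any 1 of the 6 libraries except Cre refed 3 was left out (adjusted p up to 0.112). It was also lost without a filter (0.0821), with median-of-ratios scaling (0.0671), with the Cre groups fitted alone (0.0642) and over the 8 shallower libraries (0.106).

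Pdia4, the protein disulfide isomerase ERp72 (chromosome 6, 47796141 to 47813512), did not pass in any genotype. In Cre livers it had 54.8, 58.8 and 48.6 FPKM fasted and 91.7, 81.9 and 59.3 FPKM refed, just without overlap (0.49 ± 0.22, adjusted p = 0.207). GFP livers gave 0.40 ± 0.22 (adjusted p = 0.311), and 2 of 3 refed libraries exceeded the highest fasted one. In WT livers the point estimate was negative (-0.29 ± 0.19, adjusted p = 0.491), with 96.0 FPKM in WT fasted 2 against 49.0 to 60.5 FPKM refed. KO livers gave -0.01 ± 0.19 (adjusted p = 0.986).

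Dnajb9, the J-domain co-chaperone ERdj4 that brings BiP to IRE1 (chromosome 12, 44205897 to 44210068), was called in both constitutive genotypes and in neither acute one. WT livers had 11.9, 16.2 and 17.8 FPKM fasted and 28.0, 24.96 and 29.1 FPKM refed. KO livers had 17.8, 15.01 and 13.7 FPKM fasted and 20.8, 24.7 and 24.5 FPKM refed. In both genotypes all refed libraries stood above all fasted ones. The rise was 1.79-fold in WT (log2 change 0.81 ± 0.14, adjusted p = 0.0365, limma) and 1.51-fold in KO livers (0.56 ± 0.14, adjusted p = 0.0400). Dnajb9 was the 1 gene of the 10 called higher in each of these comparisons, against 0.154% of 10375 genes tested in WT and 2.0% in KO livers. It was also the 1 gene of the 10 whose WT groups did not overlap, against 10.2% of all genes. In GFP livers it had 24.6, 21.95 and 12.4 FPKM fasted and 21.7, 16.7 and 21.8 FPKM refed (0.08 ± 0.26, adjusted p = 0.890). In Cre livers it had 16.1, 22.03 and 20.4 FPKM fasted and 41.9, 21.7 and 28.0 FPKM refed (0.58 ± 0.26, adjusted p = 0.207). The WT call was lost when any 1 of the 6 libraries except WT fasted 3 was left out (adjusted p up to 0.136), without a filter (0.0860) and with the WT groups fitted alone (0.0936). The KO call was lost without each of the 6 KO libraries (0.0510 to 0.140) and without a filter (0.0762).

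Dnajc3, the BiP co-chaperone p58IPK that also inhibits the sensor kinase PERK (chromosome 14, 118937932 to 118981702), had 39.4, 36.8 and 36.2 FPKM in GFP fasted and 50.2, 61.6 and 41.1 FPKM in GFP refed livers. Cre livers had 36.8, 39.4 and 32.8 FPKM fasted and 51.7, 61.5 and 46.5 FPKM refed. In both, the refed libraries were above the fasted ones without overlap. Dnajc3 and Xbp1 were the 2 genes of the 10 with such a separation in GFP livers, where 19.9% of all genes had it. The log2 differences were 0.42 ± 0.14 in GFP and 0.53 ± 0.14 in Cre livers (adjusted p = 0.104 and 0.0522). Without GFP refed 3 that of GFP livers passed (0.0382), as did that of Hsp90b1 (0.0343). In WT livers the means were equal, 39.2 FPKM in both states, and KO livers gave 0.17 ± 0.15 (adjusted p = 0.512).

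Sdf2l1, which works with the co-chaperone Dnajb11 (chromosome 16, 17130138 to 17132383), had 18.0, 19.6 and 11.6 FPKM in Cre fasted and 42.0, 32.9 and 20.1 FPKM in Cre refed livers. In KO livers it had 16.2, 15.4 and 19.9 FPKM fasted and 33.1, 23.0 and 23.3 FPKM refed. Groups did not overlap in either genotype, but neither difference passed (0.88 ± 0.29, adjusted p = 0.0997, and 0.59 ± 0.21, adjusted p = 0.104). With Dnajb9 it was 1 of 2 genes separated this way in KO livers, against 13.1% of all genes. Without Cre refed 3 the difference in Cre livers passed (adjusted p = 0.0490). GFP livers gave 0.42 ± 0.29 and WT livers -0.10 ± 0.21 (adjusted p = 0.412 and 0.852).

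Creld2, an ER protein induced by ER stress (chromosome 15, 88819646 to 88826681), had the widest differences of the 10 in both acute genotypes. GFP livers had 18.7, 28.4 and 12.4 FPKM fasted and 57.7, 65.0 and 22.9 FPKM refed, with GFP refed 3 below the highest fasted library. Cre livers had 14.7, 20.2 and 17.2 FPKM fasted and 88.5, 51.5 and 22.6 FPKM refed, without overlap. The ratios of means were 2.45 and 3.12, and the log2 differences 1.19 ± 0.48 and 1.40 ± 0.48 (adjusted p = 0.159 and 0.108). That of Cre livers passed without Cre refed 3 (0.0433). KO livers had 17.3, 20.8 and 24.1 FPKM fasted and 33.1, 42.7 and 23.2 FPKM refed (0.61 ± 0.35, adjusted p = 0.291). In WT livers, where WT fasted 2 had 44.9 FPKM against 12.9 and 18.7 FPKM in the other fasted libraries, the difference was 0.16 ± 0.35 (adjusted p = 0.868).

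Herpud1, a membrane adaptor of the HRD1 ubiquitin ligase in ER-associated degradation (chromosome 8, 94386500 to 94395358), differed from the rest in its order of groups. Its highest mean was in WT refed livers (265 ± 28.5 FPKM) and its lowest in Cre fasted livers (164 ± 22.1 FPKM), while 8 of the other 9 genes had their highest mean in Cre refed livers and Hsp90b1 had it in GFP refed livers. The refeeding differences were 0.03 ± 0.17 in GFP, 0.32 ± 0.17 in Cre, 0.29 ± 0.24 in WT and 0.41 ± 0.24 in KO livers (adjusted p = 0.940, 0.287, 0.588 and 0.307). In each of the 10 genes, 6 or 7 of the 7 neighbouring pairs in the order of the 8 group means had overlapping libraries. The order itself is therefore mostly within the spread.

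**Figure D2:**
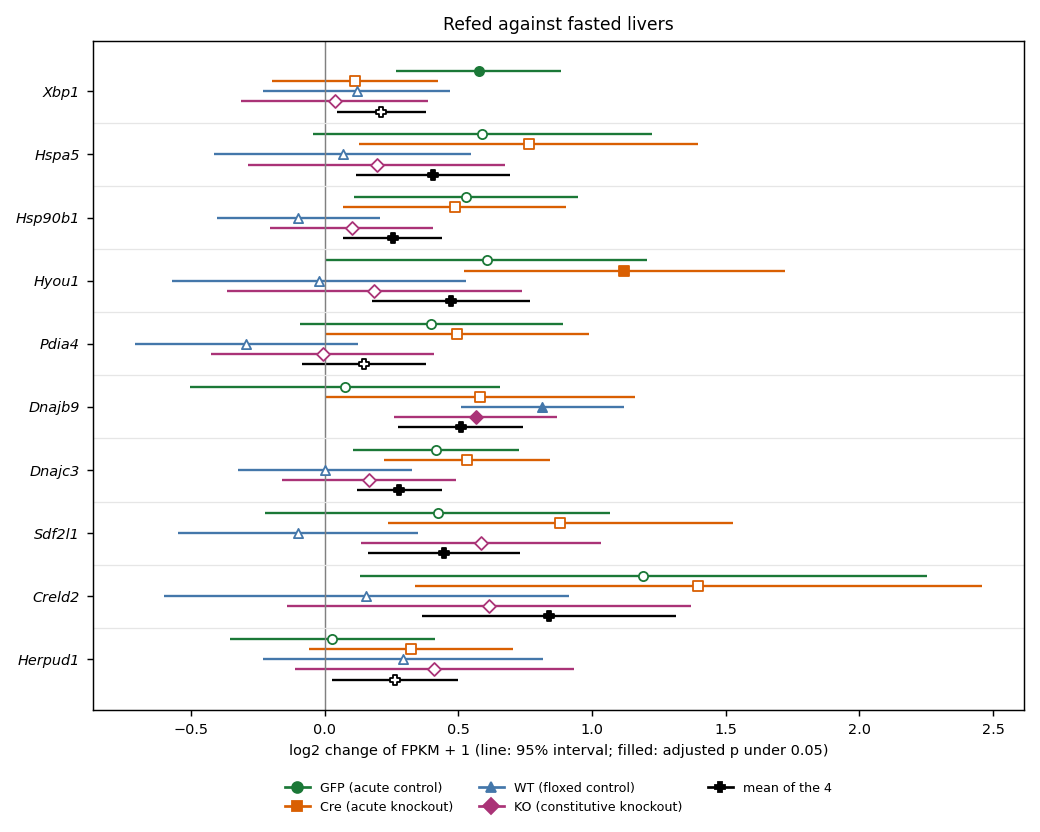
Refed minus fasted difference of each gene on the log2(FPKM + 1) scale (horizontal axis) in the 4 genotypes and as the mean of the 4, with 95% intervals; filled symbols have adjusted p under 0.05. All 10 means of the 4 lie above 0, and those of Xbp1, Pdia4 and Herpud1 are open.

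The 4 refeeding responses were averaged in a fit of all 24 libraries to ask what refeeding did over genotypes and models. Of the 10 genes, 7 rose and 0 fell, against 19.9% of all 10682 genes called higher and 10.4% called lower. Creld2 rose 1.93-fold (log2 change 0.84 ± 0.23, adjusted p = 0.00882, limma), from a mean of 20.9 to 40.2 FPKM. Dnajb9 rose 1.45-fold (0.51 ± 0.11, adjusted p = 0.00213), Sdf2l1 1.42-fold (0.45 ± 0.14, 0.0177) and Hyou1 1.41-fold (0.47 ± 0.14, 0.0161). Hspa5 rose 1.34-fold (0.40 ± 0.14, adjusted p = 0.0321), Dnajc3 1.24-fold (0.28 ± 0.08, 0.00961) and Hsp90b1 1.23-fold (0.25 ± 0.09, 0.0345). Xbp1 (0.21 ± 0.08, adjusted p = 0.0504), Herpud1 (0.26 ± 0.11, 0.0814) and Pdia4 (0.15 ± 0.11, 0.328) did not pass. The median log2 change was 0.34 over the 10 and 0.04 over all genes, and 10 of 10 were above 0, as were 60.3% of all genes. The calls of Creld2, Dnajb9, Sdf2l1, Hyou1 and Dnajc3 held with any 1 of the 24 libraries left out. That of Hspa5 was lost without GFP fasted 3, Cre fasted 1, GFP refed 1, GFP refed 2, Cre refed 1, WT fasted 1, WT refed 1 or KO refed 2 (adjusted p up to 0.0606). That of Hsp90b1 was lost without any of 12 libraries (up to 0.0644): GFP fasted 3, Cre fasted 3, GFP refed 2, Cre refed 1 or 2, WT fasted 1 or 3, KO fasted 1 or 2, WT refed 1 or 3, or KO refed 1. The calls of Hspa5 and Hsp90b1 were also lost without a filter (adjusted p = 0.0589 and 0.0600, limma) and with median-of-ratios scaling (0.0582 and 0.0856). Xbp1 passed without any of 7 libraries (down to 0.0289), namely GFP fasted 1 or 2, Cre fasted 1, WT fasted 3, KO fasted 2, WT refed 1 or KO refed 1, and Herpud1 without Cre refed 2 or KO fasted 3 (down to 0.0172). With WT fasted 2 and Cre refed 1 both left out, 7 of 10 were again called, against 17.5% of all genes called higher. Over the 8 shallower acute libraries with the constitutive ones, 5 were called, against 16.5% of all genes called higher. Hspa5 (adjusted p = 0.0882, limma) and Hyou1 (0.0630) were not.

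Taken within each model, the averaged response differed in which genes passed. In the acute model 7 of the 10 rose and 0 fell, against 15.6% of 10452 genes called higher and 4.1% lower. Creld2 rose 2.76-fold (1.295 ± 0.342, adjusted p = 0.0233, limma), Hyou1 1.89-fold (0.86 ± 0.19, 0.0117) and Sdf2l1 1.68-fold (0.65 ± 0.21, 0.0483). Hspa5 rose 1.62-fold (0.68 ± 0.20, 0.0392) and Hsp90b1 1.45-fold (0.51 ± 0.13, 0.0241). Dnajc3 rose 1.41-fold (0.47 ± 0.10, 0.00899) and Xbp1 1.24-fold (0.34 ± 0.10, 0.0338). Pdia4 (0.45 ± 0.16, adjusted p = 0.0713), Dnajb9 (0.33 ± 0.19, 0.238) and Herpud1 (0.18 ± 0.12, 0.344) did not pass. In the constitutive model Dnajb9 alone rose, 1.65-fold (0.69 ± 0.10, adjusted p = 0.00219), against 6.79% of 10375 genes called higher and 7.57% lower, and the other 9 had adjusted p from 0.181 to 0.996. Creld2 passed as well without WT fasted 2 (0.0285) and Herpud1 without KO fasted 3 (0.0454). The medians were 0.49 in the acute and 0.11 in the constitutive model, beside 0.07 and -0.01 over all genes. The constitutive median ran from 0.02 without WT fasted 1 to 0.26 without WT fasted 2. The call of Dnajb9 in the constitutive model and those of Hyou1 and Dnajc3 in the acute model held with any 1 library of the model left out. The acute calls of Sdf2l1, Hspa5, Xbp1, Creld2 and Hsp90b1 held in 2, 4, 5, 7 and 8 of the 12 such fits. The acute count was 2 without Cre refed 2, 3 without GFP fasted 3, Cre fasted 3, GFP refed 1 or Cre refed 1, and 4 without Cre fasted 1, Cre fasted 2 or GFP refed 2. In these fits 10.6% to 13.2% of all genes were called higher. Pdia4 passed without GFP refed 3 or Cre refed 3 (down to 0.0150). The count was 5 over the 8 shallower libraries, and 3 both without a filter and with median-of-ratios scaling. The shares of all genes called higher there were 5.12%, 7.86% and 6.73%. These averages within a model were added after the data had been seen.

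The difference between the 2 models was tested directly, and 0 of the 10 genes passed (limma, adjusted p from 0.114 to 0.677), where 1.43% of all genes did. At an unadjusted p under 0.05 there were 4: Hsp90b1 (0.51 ± 0.18), Hyou1 (0.78 ± 0.28), Pdia4 (0.60 ± 0.22) and Dnajc3 (0.39 ± 0.15), all larger in the acute model. The difference for Dnajb9 was -0.36 ± 0.22 (95% interval -0.83 to 0.11). Over the 8 shallower acute libraries that of Dnajb9 passed (adjusted p = 0.0412, limma), as did 173 of 10614 genes. With WT fasted 2 and Cre refed 1 left out 0 of the 10 did, and 31 of 10646 genes. With controls alone (GFP minus WT) and with knockouts alone (Cre minus KO), 0 of 10 passed (adjusted p from 0.436 and from 0.201), against 0.00936% and 0.253% of all genes. The unadjusted counts were 3 and 1. The share of all genes under an unadjusted p of 0.05 is not given here, so these counts and the 4 above have no background to be read against. A different refeeding response of these genes in the acute and constitutive livers is thus not shown.

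Of the stellate, Kupffer and endothelial marker lists, at least 1 had separate fasted and refed sums in Cre livers and in WT livers. All 3 overlapped between the states in GFP and in KO livers. Stellate cell markers summed to 66.1 to 142 FPKM in GFP fasted and 122 to 147 FPKM in GFP refed livers, with overlap, and to 58.9 to 89.2 FPKM in Cre fasted and 122 to 152 FPKM in Cre refed livers, without overlap. In WT livers, where Dnajb9 was called, they summed to 96.4 to 106 FPKM fasted and 121 to 153 FPKM refed, without overlap, and in KO livers to 114 to 145 and 133 to 149 FPKM, with overlap. Kupffer cell and macrophage markers summed to 56.4 to 81.0 and 79.3 to 162 FPKM in GFP fasted and refed livers, and to 56.6 to 87.8 and 46.7 to 285 FPKM in Cre fasted and refed livers, both with overlap. They summed to 90.1 to 164 FPKM in WT fasted and 176 to 190 FPKM in WT refed livers, without overlap, and to 157 to 217 and 172 to 236 FPKM in KO fasted and refed livers, with overlap. Endothelial markers had ranges of 20.0 to 38.6 FPKM in Cre fasted and 44.1 to 68.2 FPKM in Cre refed livers, without overlap, and of 31.3 to 61.3 and 56.2 to 73.7 FPKM in GFP fasted and refed livers, with overlap. In WT livers their ranges overlapped (32.6 to 37.3 and 33.8 to 40.6 FPKM), as they did in KO livers (45.0 to 53.7 and 41.8 to 45.5 FPKM). In all 3 lists every marker was above 1 FPKM in at least 1 library. Their part in the rise of the ER genes was not tested. In whole liver, a shift in the number of cells of a type and a shift in RNA per cell cannot be told apart.

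FoxO1 knockout and control livers were compared in each state to ask whether loss of FoxO1 moved these genes. None of the 10 passed in any of the 4 comparisons (limma, 0 called), where 0.297% of all genes did in fasted and 0.105% in refed acute livers, and 0.0964% and 0.0289% in fasted and refed constitutive livers. The smallest adjusted p was that of Xbp1 in fasted acute livers. There the Cre libraries (129 to 159 FPKM) lay above the GFP libraries (74.8 to 115 FPKM) without overlap, as did 9.15% of all genes, for a difference of 0.50 ± 0.14 (adjusted p = 0.173, unadjusted p = 0.00427). This comparison shares the 3 GFP fasted libraries with the refeeding response of Xbp1 in GFP livers, so the 2 results are not independent. At an unadjusted p under 0.05 it was the 1 gene of the 10 in that comparison, and the count was 0 in the other 3. The share of all genes at that unadjusted threshold is not given.

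For Hspa5 the knockout difference was 0.01 (95% interval -0.63 to 0.64) in fasted and 0.18 (-0.45 to 0.82) in refed acute livers. It was -0.10 (-0.58 to 0.38) and 0.02 (-0.46 to 0.50) in fasted and refed constitutive livers. The bound farthest from 0 among these was 0.82, for refed acute livers. Creld2 had the widest intervals, -1.18 to 0.94 in fasted and -0.97 to 1.15 in refed acute livers. Among refed livers the largest point estimates were 0.54 ± 0.26 for Dnajb9 and 0.48 ± 0.29 for Sdf2l1 in the acute model and 0.43 ± 0.21 for Sdf2l1 in the constitutive model (adjusted p = 0.578, 0.682 and 0.467). Dnajb9 in refed constitutive livers was lower in KO than in WT libraries without overlap (-0.22 ± 0.14, adjusted p = 0.542), as were 8.5% of all genes.

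**Figure D3:**
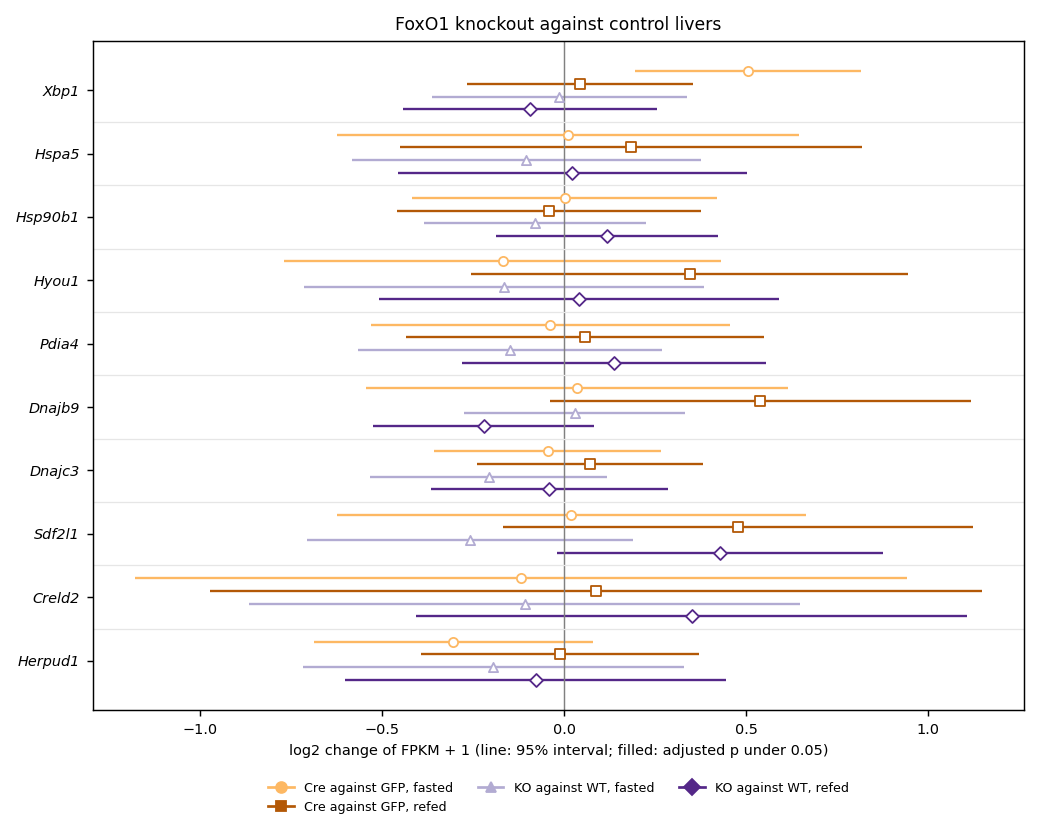
Knockout minus control difference of each gene on the log2(FPKM + 1) scale (horizontal axis) in the 4 comparisons, with 95% intervals. Every symbol is open, since 0 of the 10 genes passed at adjusted p under 0.05, and the interval of Xbp1 in fasted acute livers is the one that lies wholly above 0.

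The dependence of the refeeding response on FoxO1 was tested as an interaction. In the acute model 0 of 10 passed (limma, adjusted p at least 0.749, against 0.0287% of all genes), and Xbp1 was the 1 gene with an unadjusted p under 0.05, its response being smaller in Cre than in GFP livers by -0.46 ± 0.20. In the constitutive model 0 of 10 passed (adjusted p at least 0.963, as did 0.0% of all genes), and Sdf2l1 was the 1 gene with an unadjusted p under 0.05 (0.69 ± 0.29). The knockout differences were also compared between the models, with 0 of 10 and 0.0% of all genes called in either state. The unadjusted counts were 1 fasted, Xbp1 (0.52 ± 0.22), and 1 refed, Dnajb9 (0.76 ± 0.32). For none of these unadjusted counts is the share of all genes given.

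Other genes of the secretory pathway were followed as lists, each given with the averaged response of the 4 genotypes, in which 19.9% of all genes were called higher and 10.4% lower. Among other ER chaperones and co-chaperones 8 of 18 tested genes rose and 0 fell, with a median of 0.15. They included Manf, a secreted ER stress factor (1.41-fold, 23.6 ± 7.88 to 33.4 ± 9.56 FPKM, SD over 12 libraries per state, adjusted p = 0.0250), and Dnajb11, the partner of Sdf2l1 (1.26-fold, adjusted p = 0.00423). Of 14 ER oxidoreductases 7 rose and 0 fell, among them Txndc11 (1.49-fold), Pdia6 (1.21-fold) and Pdia3 (1.20-fold). ER-associated degradation gave 10 of 25 higher and 0 lower. Derl3 of that list went from 2.12 ± 1.78 to 8.24 ± 7.91 FPKM (3.89-fold, log2 change 1.32 ± 0.39, adjusted p = 0.0155), with an SD near its mean in both states, and Syvn1, the HRD1 ubiquitin ligase, rose 1.46-fold (adjusted p = 0.0267).

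Translocation and signal peptide processing had 15 of 23 genes higher and 0 lower, N-glycosylation 8 of 20 and 0, and ER to Golgi transport 10 of 24 and 1. Examples are Srprb of the signal recognition particle receptor (1.38-fold), the mannosyltransferase Alg2 (1.60-fold), the cargo receptor Lman1 (1.18-fold) and, as the 1 that fell, the Golgi tether Golgb1 (0.877 times). Among 11 sensors and regulators of the unfolded protein response the count was near the share over all genes: 2 rose, Nfya, a subunit of the factor that binds CCAAT boxes (1.35-fold), and Atf6b (1.13-fold), and 0 fell. In single genotypes Nfya was called in GFP livers (1.89-fold, adjusted p = 0.0355) and Ern1, which encodes the IRE1 sensor, in Cre livers (6.98 ± 1.63 to 11.6 ± 1.06 FPKM, 1.66-fold, adjusted p = 0.0250).

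The PERK and ATF4 branch had 3 of 14 genes higher and 2 lower and a median of -0.01, also near the shares over all genes. Ddit3, the transcription factor CHOP, rose 1.69-fold (0.63 ± 0.13, adjusted p = 0.00147), and Trib3, a pseudokinase induced by CHOP and ATF4, fell to 0.389 times its fasted mean (6.62 ± 1.78 to 2.58 ± 1.51 FPKM, adjusted p = 1.45e-06). Heat shock chaperones of the cytosol had 14 of 16 higher and 0 lower with a median of 0.46. The largest log2 changes were those of Hspa1b (1.00, 2.84-fold) and Hsph1 (0.98, 2.21-fold). Hspa1a, a low gene, had a smaller log2 change (0.76) at 2.75-fold. Within the constitutive model, where 6.79% of all genes were called higher and 7.57% lower, 8 of 16 cytosolic heat shock chaperones, 6 of 23 translocation genes and 5 of 20 N-glycosylation genes were higher and 0 lower. The other ER chaperones had 3 of 18 higher, the oxidoreductases 3 of 14 and ER-associated degradation 2 of 25, with 0 lower. ER to Golgi transport had 1 of 24 higher and 3 lower there, with a median of 0.0028, against 12 higher and 0 lower in the acute model. The sensors and regulators had 0 of 11 higher and 1 lower, and the PERK and ATF4 branch 0 of 13 and 1. No test between the models was run for a list as a whole. The model difference was called in 3 of 24 ER to Golgi genes, 3 of 16 cytosolic chaperones and 2 of 11 sensors and regulators. It was also called in 1 of 18 other ER chaperones and 1 of 20 N-glycosylation genes, all of these larger in the acute model. In the PERK and ATF4 branch 1 of 14 was called, smaller in the acute model, and the other lists had 0. Of all genes 1.43% were called. The genes named for the averaged response were chosen after their values were seen. In the 4 knockout comparisons 0 genes of these lists were called.

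**Figure D4:**
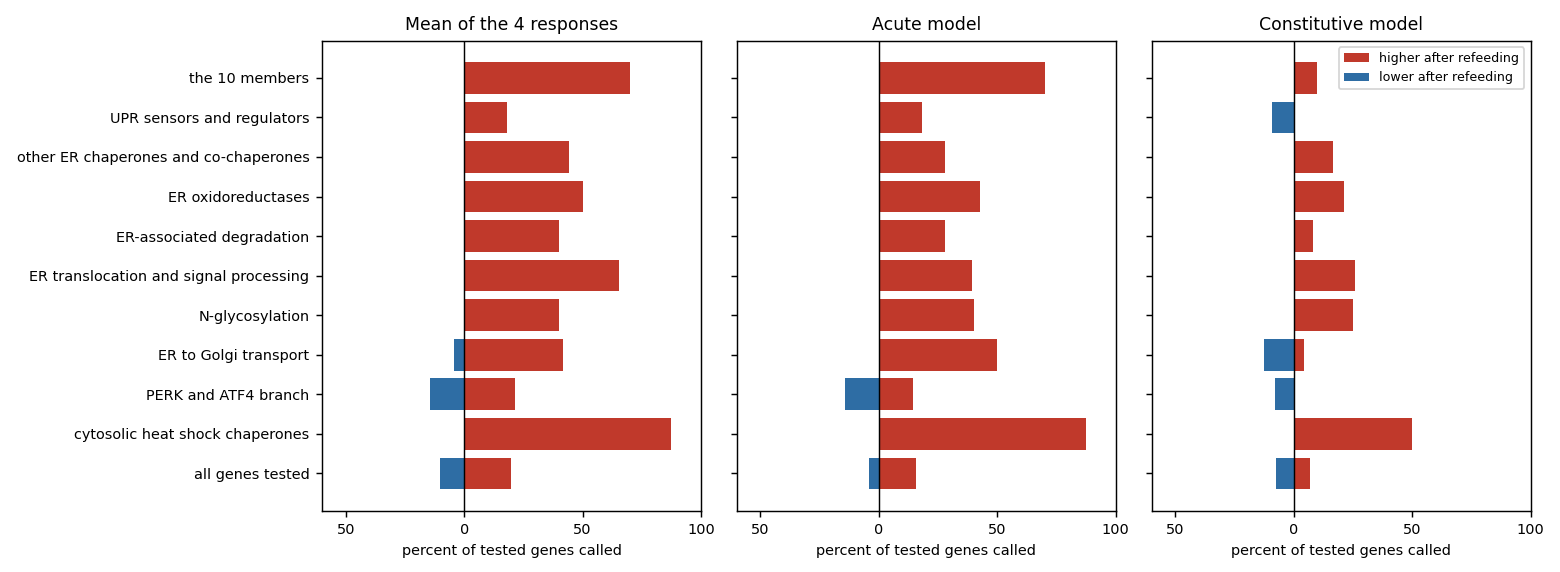
Percent of tested genes called higher (red, to the right) and lower (blue, to the left) after refeeding in the 10 ER genes, 9 related lists and all genes tested, for the mean of the 4 responses and within each model. The bar of the 10 genes stands for 7 of 10 in the first and second panels and for 1 of 10, Dnajb9, in the constitutive model.

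Across the 24 libraries Hspa5 varied most closely with Hyou1, which ranked first among 5908 genes with a median of at least 5 FPKM (Pearson r = 0.967, Spearman rho = 0.908). Creld2 ranked 3 (r = 0.926), Pdia4 13 (0.788) and Hsp90b1 28 (0.751). Farther off were Dnajc3 at 130 (0.644), Dnajb9 at 175 (0.622), Sdf2l1 at 227 (0.602) and Xbp1 at 460 (0.533), and Herpud1 ranked 1864 (0.274). Of genes outside the 10, Ubxn4 (0.935), Manf (0.905), Srprb (0.857), Mlec (0.842) and Wars (0.831) were the 5 closest to Hspa5. The r of Hyou1 was 0.943 without the libraries farthest from the median of Hspa5, Cre refed 1 and GFP fasted 3, and 0.975 after the mean of each group was removed. Hspa5 and Hyou1 thus varied together among libraries of the same group as well as over all 24.

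Xbp1 did not share that order. Its r was 0.533 with Hspa5, 0.445 with Hyou1 and -0.19 with Herpud1, and the 5 closest genes were Uba3 (0.760), Aacs (0.756), D0H4S114 (0.753), Exosc10 (0.737) and Erlin1 (0.736). With group means removed, Xbp1 had an r of 0.551 with Dnajb9 and 0.000999 with Hsp90b1. Over the 24 libraries its r with Dnajb9 was 0.499 and its Spearman rho 0.278. That r was 0.295 without GFP fasted 3 and KO fasted 3, the libraries farthest from the median of Xbp1. These values are descriptions over libraries that share groups, models and normalization, and genes of 1 library share its depth.

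**Figure D5:**
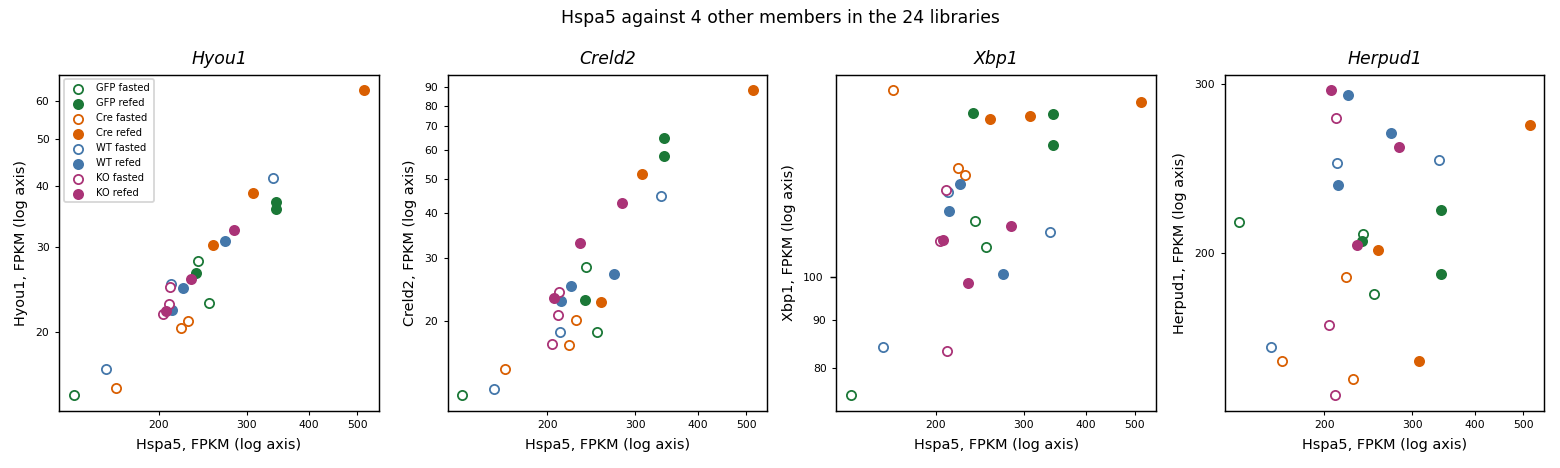
Hspa5 (horizontal axis) against Hyou1, Creld2, Xbp1 and Herpud1 (vertical axes) in the 24 libraries, FPKM on log axes, with colours for genotype and filled points for refed livers. Points of Hyou1 and Creld2 follow Hspa5 along a line (r = 0.967 and 0.926), and those of Herpud1 are scattered (r = 0.274).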

How the data were processed

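Liver RNA was extracted with Trizol and sequenced from libraries made with a stranded TruSeq mRNA kit, per the labels' protocols. The values are FPKM, with a confidence interval each, which the authors computed before deposit. HISAT2, Cufflinks, Cuffdiff and mm10 are named, without versions, in the submitters' processing notes. How strand was handled was not given in the sources used here. Values at low loci came in steps that gave relative depths, but 56.5% to 63.0% of the implied fragment numbers lay within 0.05 of a whole number, so counts were not recovered.

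Groups and replicate numbers were taken from titles. Of 23746 loci, 14 had a failed estimate in at least 1 library and were dropped. Genes with FPKM of at least 1 in at least 3 fitted libraries (10452 acute, 10375 constitutive, 10682 joint) entered a model of log2(FPKM + 1) in limma 3.58.1 under R 4.3.3 (lmFit, contrasts.fit and a trended eBayes), 1 coefficient per group, all libraries of a model or of both sharing 1 estimate of the spread. P-values are two-sided and were adjusted over every gene in the model by the Benjamini-Hochberg method, with calls at 0.05. All 10 genes passed the filter in every fit. The log2(FPKM + 1) scale understates changes of low genes, and folds are ratios of mean FPKM. The script was checked on simulated data.

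Members, lists and tests were chosen with earlier results of these data known. The 10 genes were named in every comparison, up to 2 non-overlapping calls per list and direction, and the 5 genes nearest to Hspa5 and Xbp1. Of 245 list entries 243 were in the files. Alternatives were no filter on low values, a pseudocount of 0.1, scaling by median of ratios, the compared groups alone, the replicate number as a block, the 8 shallower acute libraries alone and each library left out. The averages within each model, their difference and the omission of WT fasted 2 with Cre refed 1 were added after seeing the data.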

Additional observations from a re-analysis of the deposited data

How the results depend on the processing

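Across the alternatives 0 called differences of single genes reversed, and a pseudocount of 0.1 changed none of 180. The 1 member called in GFP livers was 0 without a filter, with median-of-ratios scaling, with the compared groups alone and over the 8 shallower libraries, and 0 to 2 with 1 library left out. The share of all genes called higher went from 4.81% to 1.91%, 2.3%, 1.93% and 1.37% in that order, and to 1.96% to 3.86%. The 1 called in Cre livers was 0 under the same 4 settings and 0 to 3 with 1 library left out. There the share went from 4.3% to 1.48%, 1.59%, 1.66% and 0.0391%, and to 0.432% to 3.41%. In WT livers the 1 call was 0 without a filter and with the compared groups alone and 0 to 1 with 1 library left out, and in KO livers 0 without a filter and 0 without any 1 of its 6 libraries. The 7 calls of the acute average became 3 without a filter and 3 with scaling, and 2 to 7 with 1 library left out. The 1 call of the constitutive average became 1 to 2 (2 without WT fasted 2 or KO fasted 3). The difference between the models went from 0 to 1 call over the 8 shallower libraries, where 173 of 10614 genes were called. The 7 calls of the average over 4 genotypes were 5 without a filter, with scaling and over the shallower libraries, and 5 to 8 with 1 library left out. There the share of all genes called higher went from 19.9% to 11.6%, 14.4% and 16.5%, and to 17.7% to 20.8%. Scaling put 8 of the 10 genes above 0 in GFP livers, with Dnajb9 at -0.02 and Herpud1 at -0.07, and kept 10 of 10 in Cre livers and in the average. The causes were not tested.

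Deviations of same-numbered libraries from their group means had a correlation over 0.1 in 5 of 18 acute and 8 of 18 constitutive pairs. The correlations ran from -0.349 to 0.378 and from -0.156 to 0.281. A block on the number raised the calls over all genes in WT refeeding (33 to 80) and KO refeeding (589 to 800). It lowered them in GFP (686 to 457) and Cre refeeding (569 to 306). These values do not settle whether the numbers pair the samples, and the main fits had no pairing term. With the replicate number as a block, 2 of the 10 were called in Cre livers (adding Dnajc3, adjusted p = 0.0370), 8 in the acute average (adding Pdia4) and 9 in the average over 4 genotypes (adding Xbp1 and Herpud1, both 0.0428), and the members called in other comparisons stayed in number.

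Counts over all genes moved more. GFP refeeding calls were 686, or 451 without a filter, 457 with the block, 280 with the groups alone and 222 over the shallower libraries. Cre refeeding gave 569, 316, 306, 232 and 6 in the same order, and 370 with scaling. WT refeeding gave 33, or 21 without a filter, 76 with scaling, 80 with the block and 10 alone, and KO refeeding 589, or 275 without a filter and 277 alone. The acute average went from 2059 to 703 over the shallower libraries, the model difference from 153 to 95 without a filter and to 31 with WT fasted 2 and Cre refed 1 left out, and Cre minus KO from 27 to 143 with scaling, 77 with the block and 124 over the shallower libraries. Fasted acute knockout calls went from 31 to 17 without a filter, 61 alone and 5 over the shallower libraries, and refed ones from 11 to 6 without a filter, 5 with the block, 3 alone and 4 over the shallower libraries. Constitutive knockout calls went from 10 to 4 without a filter and 5 alone when fasted, and from 3 to 5 with a pseudocount of 0.1 and 10 alone when refed. With 1 library left out the counts over all genes ran from 293 (GFP fasted 1) to 578 in GFP, from 57 (Cre fasted 2) to 428 in Cre, from 6 to 32 in WT and from 71 (KO fasted 1) to 740 in KO refeeding, from 861 to 1568 in the constitutive average, from 41 to 319 in the model difference and from 0 to 216 (Cre fasted 1) in Cre minus KO. For fasted and refed knockouts they ran from 7 to 36 and from 3 to 66 in the acute and from 1 to 7 and from 2 to 13 in the constitutive model. The shares of all genes set beside the members' counts move with them. Scaling also changed the split of higher against lower calls, from 503 and 183 to 239 and 304 in GFP, 449 and 120 to 166 and 204 in Cre, 207 and 382 to 422 and 402 in KO and 16 and 17 to 29 and 47 in WT refeeding. It went from 1630 and 429 to 701 and 857 in the acute average, 2128 and 1108 to 1538 and 1663 in the average over 4 genotypes, 130 and 23 to 39 and 116 in the model difference, 22 and 5 to 34 and 109 in Cre minus KO, and 6 and 4 to 6 and 9 in fasted constitutive knockouts. It moved the median of all genes in the model difference from 0.09 to -0.01 and that of the 10 genes from 0.46 to 0.34. Total depth is unknown, so no counting error can be given.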
